A study of Homo sapiens with 6 samples.

Results

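The m6A peaks of 7 genes for the enzymes and cofactor that write and remove DNA methylation were examined in HEK293T cells: the dioxygenase genes TET1, TET2 and TET3, the DNA methyltransferase genes DNMT1, DNMT3A and DNMT3B, and UHRF1. HEK293T, derived from human embryonic kidney, expresses the large T antigen of SV40. In methylated RNA immunoprecipitation sequencing (MeRIP-seq), RNA fragments bearing N6-methyladenosine (m6A) are captured with an antibody (IP) and sequenced beside uncaptured RNA (input). The 6 libraries were the IP and input of 3 repeats of wild-type cells, MeRIP 1, MeRIP 2 and MeRIP 3, with no treatment named in the labels. Each repeat has 1 list of peaks, and whether the repeats were separate cultures is not stated in the labels, so a spread over lists may reflect technique alone. Peak lists hold no expression level, so the cell type was not checked against markers.

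A peak was assigned to a gene when its centre lay in a fixed hg19 interval and its listed strand was that of the gene. The intervals were 70320110 to 70454239 on chromosome 10 (plus strand) for TET1, 106067030 to 106200960 on chromosome 4 (plus strand) for TET2 and 74229800 to 74335303 on chromosome 2 (plus strand) for TET3. They were 10244020 to 10305755 on chromosome 19 (minus strand) for DNMT1, 25455830 to 25565459 on chromosome 2 (minus strand) for DNMT3A and 31350190 to 31397162 on chromosome 20 (plus strand) for DNMT3B. The UHRF1 interval was 4909500 to 4962165 on chromosome 19 (plus strand). Together they span 645 kb. They held 45 of 21286 listed peaks (MeRIP 1), 40 of 19851 (MeRIP 2) and 41 of 20010 (MeRIP 3). Joined wherever they overlapped by 1 bp or more on 1 strand, these peaks formed 46 of the 25737 regions of the series.

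DNMT3A and DNMT3B set new methyl groups on cytosines of DNA, and DNMT1 copies the pattern to the new strand after replication. UHRF1 binds half-methylated DNA and brings DNMT1 to it. The TET proteins oxidise 5-methylcytosine, the first step of its removal. In mRNA, m6A is known to lie mostly near stop codons, in 3′ untranslated regions and in long internal exons. No hg19 gene annotation was used here, so peaks were placed by their distance from the ends of the intervals, and exons and stop codons were not located.

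All 7 genes carried m6A peaks in every list, and most of their regions recurred. Of the 46 regions, 37 (80.4%, 95% Wilson interval 66.8 to 89.3%) recurred in all 3 lists, while 5 were in 2 lists and 4 in a single list. Over the whole series 59.3% of regions had a peak in all 3 lists. Regions of 1 gene share its RNA and are not independent, and the interval covers counting error only. UHRF1 had 10 of 11 regions in all 3 lists, DNMT1 had 7 of 10, TET3 had 6 of 7, DNMT3A had 5 of 6, TET1 had 4 of 6, TET2 had 3 of 4 and DNMT3B had both of its 2. Every list is of the same wild-type line, so there was no contrast to test. Over 3 lists a two-sided sign test cannot give a p under 0.25.

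The authors gave each peak a score of 50 or more, and many peaks share the value of 3100, called the ceiling here. From its values it looks like a log-transformed p-value of the MACS peak caller, which no header states. On that reading the score would depend on the coverage of IP and input and on peak width, which was not tested. A higher score in 1 gene than in another was therefore not taken as a higher level of methylation. Scores above the ceiling were treated as at it. Of the 46 regions, 8 (17.4%, 95% Wilson interval 9.09 to 30.7%) were at the ceiling in all 3 lists, against 11.2% of all regions of the series. TET1 held 3 of them, TET3 and UHRF1 held 2 each and DNMT1 held 1.

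**Figure D1:**
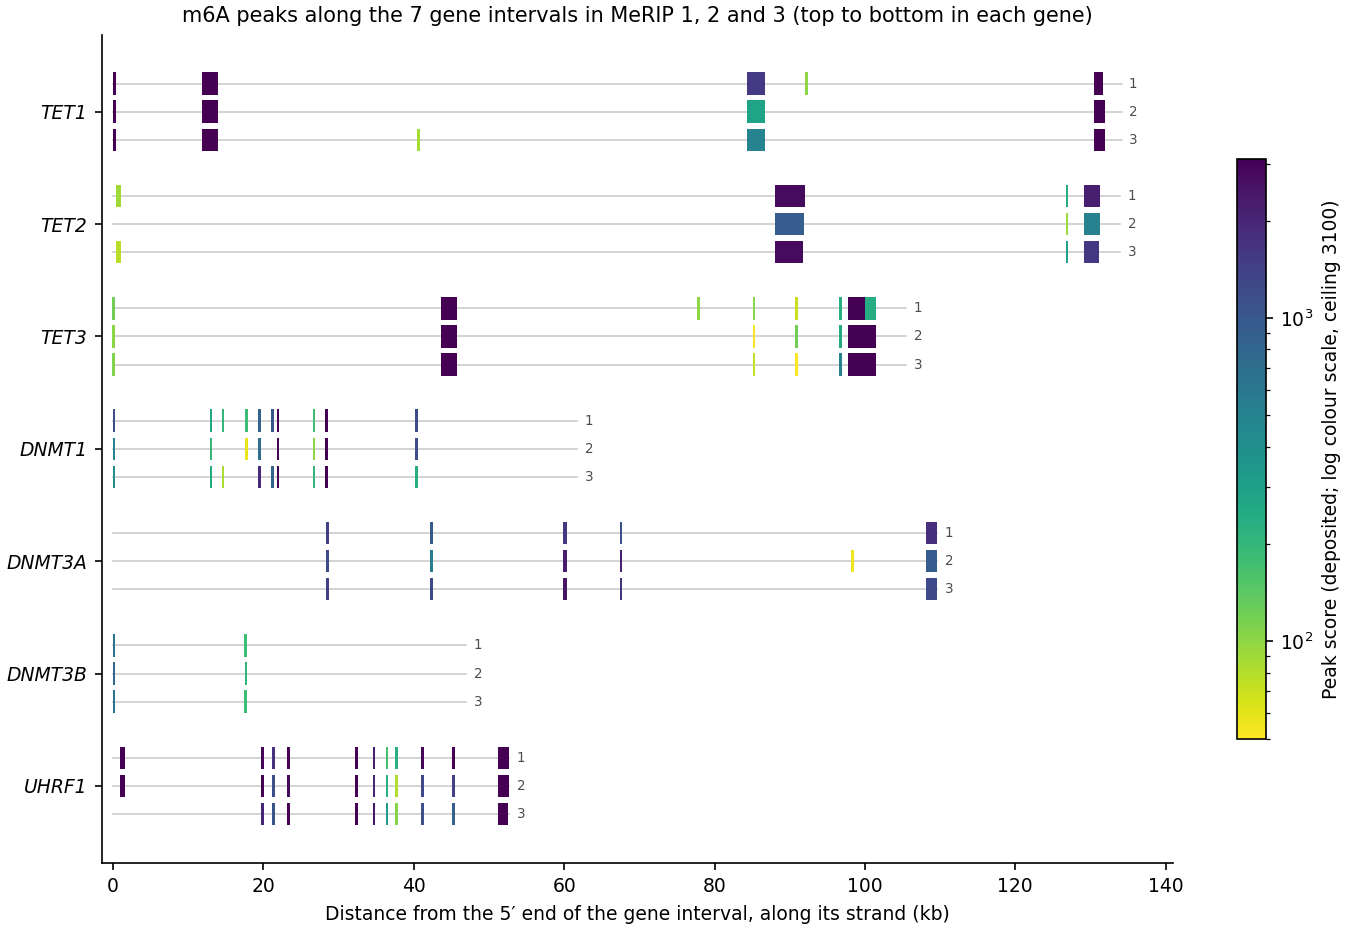
Listed peaks along each gene interval, as distance in kb from its 5′ end, with 1 line for each of MeRIP 1, 2 and 3 and colour for the deposited score (log scale); peaks narrower than 0.35 kb are drawn 0.35 kb wide. Wide blocks appear in all 3 TET genes and at the 3′ end of DNMT3A and UHRF1, DNMT1 has narrow peaks alone, and DNMT3B has no peak in its final 29.2 kb in any list.

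TET1 encodes a dioxygenase with a domain that binds CpG-rich DNA. Its 4 recurrent regions were far apart and all but 1 were at the ceiling. The 5′-most began 7 bp inside the interval (chromosome 10 at 70320117 to 70320499, 383 bp) and scored 3100 in MeRIP 1, MeRIP 2 and MeRIP 3. The next lay 11.9 kb from the 5′ end (70331974 to 70334009, 2036 bp) and also scored 3100 in each list. The 3′-most, of 1536 bp at 70450565 to 70452100, ended 2.14 kb before the end of the interval and scored 3100 in each list. These 3 regions thus reached the ceiling in every repeat, where differences between lists cannot be seen.

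The remaining recurrent TET1 region, the widest at 2308 bp (70404455 to 70406762), scored 1568 in MeRIP 1, 279 in MeRIP 2 and 484 in MeRIP 3. MeRIP 1 stood above the others by a wide margin, and the 5.61-fold range was the largest among the 26 regions of the 7 genes that were below the ceiling in all lists. On the reading above such a ratio compares logs of p-values and is no fold of methylation. Narrow TET1 peaks were listed once each: 54 bp at 70360738 to 70360791 with a score of 87.0 in MeRIP 3, and 94 bp at 70412258 to 70412351 with 101 in MeRIP 1.

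TET2 encodes a dioxygenase that is often mutated in blood cancers. It held the widest region of the 7 genes, 4026 bp at 106155054 to 106159079 on chromosome 4, which scored 2765 in MeRIP 1, 927 in MeRIP 2 and 2728 in MeRIP 3. A region of 2115 bp at 106196205 to 106198319 ended 2.64 kb before the interval's 3′ end and scored 2190.0, 506 and 1591 in MeRIP 1, 2 and 3. Another, of 355 bp at 106193721 to 106194075, scored 242, 93.1 and 301. MeRIP 2 was lowest in all 3 recurrent regions of TET2. The only other TET2 region, 687 bp at 106067450 to 106068136 near the 5′ end, was listed in MeRIP 1 with a score of 90.5 and in MeRIP 3 with 77.95, and was missing from MeRIP 2. Over the 26 regions of the 7 genes that stayed under the ceiling, MeRIP 2 gave the lowest score in 14 (53.8%), against 39.0% of such regions in the series.

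TET3 encodes the dioxygenase known for acting in the fertilised egg and in neurons. Its peaks split into 2 strong wide regions and 4 weak narrow ones that recurred. A region of 2134 bp at 74273405 to 74275538 on chromosome 2 scored 3100 in every list. So did a region of 3800 bp at 74327520 to 74331319, which ended 3.98 kb before the 3′ end. In MeRIP 1 the second of these was listed as a peak of 2311 bp scored 3100 and, past a gap of 7 bp, a peak of 1447 bp scored 244, while MeRIP 2 and MeRIP 3 each listed 1 peak, of 3800 and 3786 bp. The weak regions were far below: the strongest, 337 bp at 74326403 to 74326739, scored 232 in MeRIP 1, 253 in MeRIP 2 and 490 in MeRIP 3. A region of 89 bp that began 40 bp inside the interval (74229840 to 74229928) scored 122, 102 and 109 in MeRIP 1, 2 and 3, with little spread. Regions of 209 bp and 138 bp, 85.2 and 90.9 kb from the 5′ end, had scores from 50.05 to 124 and were among the weakest recurrent regions of the series: 1.84% and 1.74% of regions in all 3 lists had a lower median score. A 94 bp peak at 74307625 to 74307718 was listed in MeRIP 1 alone, with a score of 100.

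DNMT1, the maintenance methyltransferase, carried 10 regions, all narrow, from 35 to 260 bp. The strongest was 88 bp wide, at 10277274 to 10277361 on chromosome 19, and scored 3100 in all 3 lists. An 85 bp region at 10283766 to 10283850 scored 3100 in MeRIP 1 and MeRIP 3 and 3027 in MeRIP 2. Scores at the ceiling do not tell how these narrow regions compare with the wide ones of TET1 and TET3. The widest, at the 5′ end (10305496 to 10305755, 260 bp), reached the last base of the interval in MeRIP 2 and scored 1169, 506 and 407 in MeRIP 1, 2 and 3. The 3′-most region (10265262 to 10265449, 188 bp) scored 1192, 1193 and 239 in MeRIP 1, 2 and 3, a 4.98-fold range in which MeRIP 3 was the low one. It lay 21.2 kb before the interval's 3′ end, and no list held a DNMT1 peak beyond it. The other recurrent DNMT1 regions scored from 98.8 to 266 at 37 bp and 35 bp, and from 727 to 1888 at 79 bp.

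DNMT1 also had the most regions missing from a list, 3 in number. A 35 bp peak at 10284547 to 10284581 scored 1032 in MeRIP 1 and 815 in MeRIP 3 and was not listed in MeRIP 2. A 220 bp peak at 10291026 to 10291245 scored 206 in MeRIP 1 and 84.1 in MeRIP 3. A 76 bp peak at 10287968 to 10288043 scored 186 in MeRIP 1 and 56.2 in MeRIP 2. MeRIP 1 held all 3 and gave the higher score each time. Read depth is unknown, so a peak missing from a list was not shown to be absent from the RNA.

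UHRF1, which brings DNMT1 to newly copied DNA, had the most regions, 11, spread along its 52.7 kb interval. Apart from the first and the last, they were 105 to 255 bp wide. The region at 4941757 to 4941943 on chromosome 19 (187 bp) scored 3100 in every list. That at 4932753 to 4932968 (216 bp) scored 3100 in MeRIP 1, 2803 in MeRIP 2 and 3129.8, treated as at the ceiling, in MeRIP 3. The region at 4929234 to 4929488 (255 bp) scored 2946, 3100 and 1992 in MeRIP 1, 2 and 3. The last and widest region, 1498 bp at 4960668 to 4962165, reached the end of the interval in MeRIP 1 and scored 3100 in each list. UHRF1 thus had narrow peaks from 19.7 kb into the interval onwards and a wide one at its 3′ end.

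The narrow UHRF1 peaks varied unevenly between lists. The region at 4954662 to 4954833 (172 bp) scored 3054 in MeRIP 1, 1416 in MeRIP 2 and 900 in MeRIP 3, a 3.39-fold range that was the widest in this gene. The one before it, 163 bp at 4950623 to 4950785, scored 2893, 1251 and 1137 in MeRIP 1, 2 and 3, a 2.55-fold range. MeRIP 1 was the highest list in both. In the middle of the gene the region at 4944144 to 4944267 (124 bp) scored 2158, 2059 and 2444, with a 1.19-fold range. A region of 161 bp at 4930728 to 4930888 scored 1726, 1169 and 1043, and MeRIP 1 again stood highest. The weakest were 105 bp at 4945873 to 4945977, with 172, 226 and 328, and 107 bp at 4947117 to 4947223, with 226, 82.4 and 105 in MeRIP 1, 2 and 3, a 2.74-fold range.

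The first UHRF1 region was the only one of the 46 that reached the ceiling in some lists and was missing from another. At 4910379 to 4911050 (672 bp), 0.879 kb from the 5′ end, it scored 3100 in MeRIP 1 and in MeRIP 2 and was not listed in MeRIP 3. MeRIP 3 instead listed a peak of 801 bp with a score of 3100 on the minus strand at 4909219 to 4910019, which does not overlap it and which was the only peak on the opposite strand with its centre in any of the 7 intervals. In RefSeq (GRCh38.p14) the gene ARRDC5 overlaps the start of UHRF1. The source of this peak, and how strands were assigned, was not tested. Of the other 8 regions missing from a list, 7 had no score above 206, and the eighth was the DNMT1 peak of 35 bp.

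DNMT3A, a de novo methyltransferase, had 5 recurrent regions of middle strength, none at the ceiling in any list. The strongest, 478 bp at 25505103 to 25505580 on chromosome 2, scored 1589, 2177 and 2490 in MeRIP 1, 2 and 3. The region at 25497810 to 25497956 (147 bp) scored 1154, 2126 and 1704 in MeRIP 1, 2 and 3. MeRIP 1 was the lowest list in both. The widest, 1460 bp at 25455830 to 25457289, ended at the 3′ end of the interval and scored 1789, 935 and 1231. The region at 25536782 to 25537030 (249 bp) varied least, with 1416, 1230.0 and 1389, a 1.15-fold range. That at 25523008 to 25523112 (105 bp) varied most, with 978, 549 and 1246, a 2.27-fold range. The first 28.4 kb of the interval held no listed peak. A 184 bp peak at 25467024 to 25467207 was found in MeRIP 2 alone, with a score of 55.75.

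DNMT3B, the second de novo methyltransferase, had the fewest regions. One began within 1 bp of the start of its interval (31350191 to 31350505 on chromosome 20, 315 bp) and scored 677, 776 and 673 in MeRIP 1, 2 and 3. The other lay 17.5 kb downstream (31367658 to 31367951, 294 bp) and scored 183, 207 and 182 in MeRIP 1, 2 and 3. Their ranges were 1.15-fold and 1.14-fold. Among the 26 regions that stayed under the ceiling, these and the least variable DNMT3A region had the 3 smallest ranges. The final 29.2 kb of the interval held no peak in any list, so DNMT3B and DNMT1 were the genes without a peak near the 3′ end. The last region ended 0 to 3.98 kb from the end of the interval in TET1, TET2, TET3, DNMT3A and UHRF1.

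**Figure D2:**
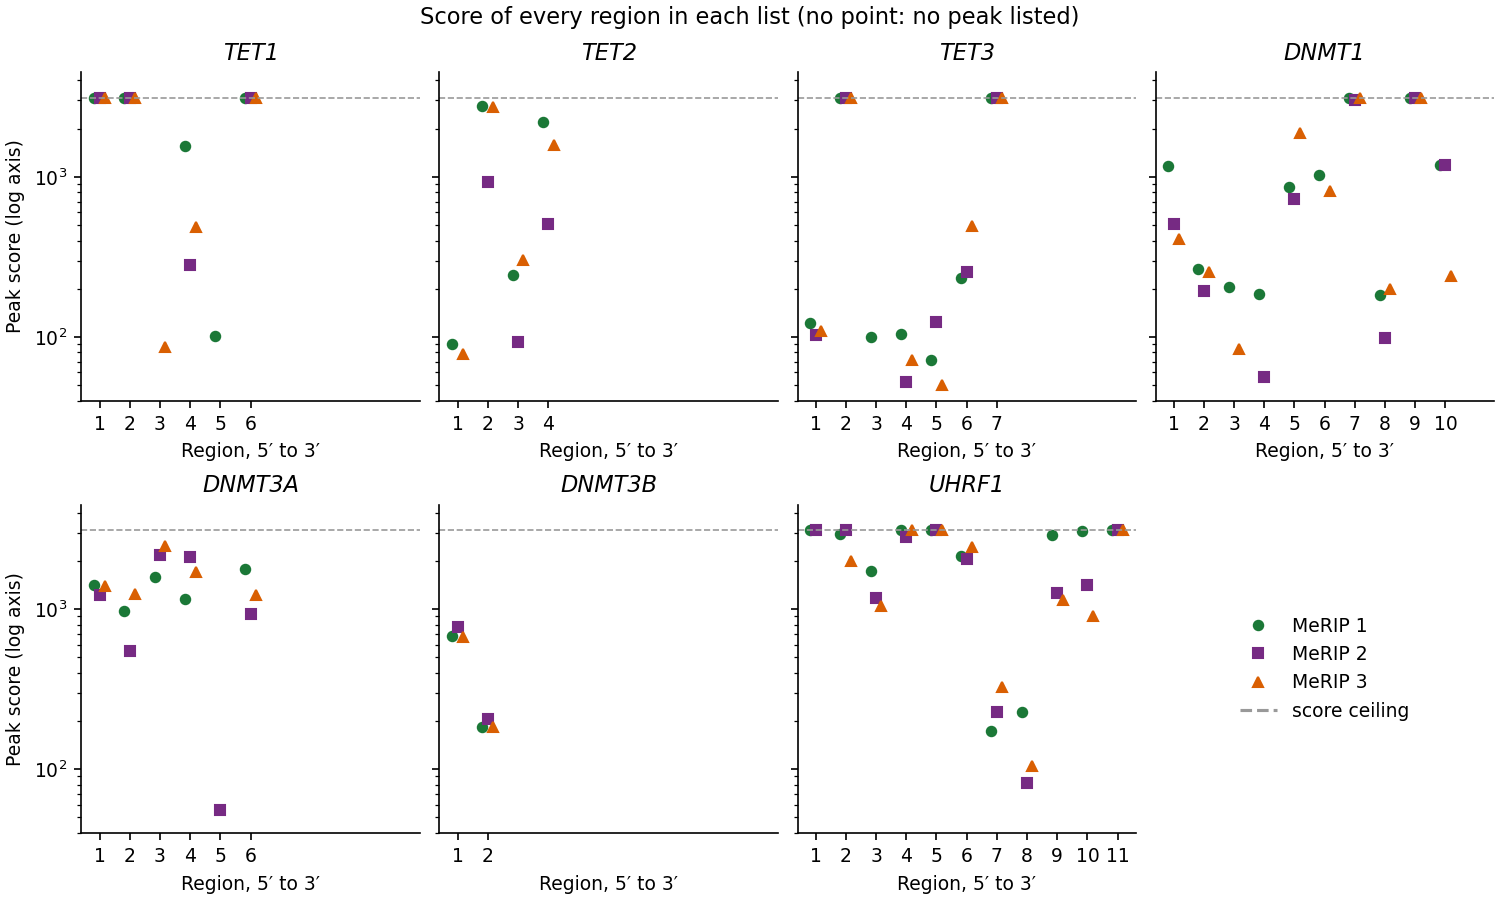
Deposited score (log axis, set to the ceiling of 3100 where above it) of each region of each gene, numbered 5′ to 3′, in MeRIP 1, 2 and 3; a missing point means that no peak was listed. All recurrent regions of TET2 are lowest in MeRIP 2, and both regions of DNMT3B lie close together in the 3 lists.

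The amount of each gene under peaks was compared per kb of interval, introns included. Peaks covered 69.5 bp per kb of UHRF1 in MeRIP 1, 69.3 in MeRIP 2 and 54.9 in MeRIP 3, a mean of 64.6 ± 8.36 bp per kb (SD, n = 3 lists). TET3 had 63.7 ± 0.330 bp per kb, TET2 had 50.3 ± 3.10 and TET1 had 46.1 ± 0.955. The ranges of UHRF1 and TET3 overlapped, with UHRF1 higher in MeRIP 1 and MeRIP 2 and lower in MeRIP 3, so these genes were not ordered. The first region of UHRF1, of 672 bp, was not in the list of MeRIP 3. DNMT3A had 22.7 ± 0.972 bp per kb, DNMT1 had 15.8 ± 1.84 and DNMT3B had 12.0 ± 1.72. Apart from UHRF1 and TET3, neighbours in this order did not overlap over the 3 lists. The gap was smallest between TET2, at 47.5 or more, and TET1, at 47.1 or less. TET2 here includes peaks scored under 100: the 687 bp region in MeRIP 1 and MeRIP 3, and the 355 bp region in MeRIP 2. TET1 includes 1 such peak, of 54 bp in MeRIP 3. Values of single genes without such peaks were not computed. By the listed widths, TET2 then lay above TET1 in MeRIP 1 and below it in MeRIP 2 and MeRIP 3. Their order thus depended on the weak peaks. The places of TET3 and UHRF1 depended on the length used, since both genes are longer in RefSeq (assembly GRCh38.p14). Over RefSeq lengths, an alternative chosen after seeing the data, TET3 had 44.2 ± 0.229 bp per kb, below the 46.1 ± 0.955 of TET1 and the 50.3 ± 3.10 of TET2 (SD, n = 3 lists). UHRF1 then ranged from 49.0 to 62.0 over the lists, above TET3 in each and overlapping TET2. With either length, and peaks of all widths, every TET gene lay above every methyltransferase gene in each list. Both lengths include introns, and length under peaks per kb of exon was not computed. This lead goes with wide regions: 7 of the 13 recurrent TET regions were over 1000 bp, against 2 of 24 in the other genes. With peaks of at most 1000 bp the 7 genes together had 10.2 bp per kb in place of 42.0. Values per kb of single genes were not computed under that setting, but the listed widths show that the lead of the TET genes did not hold there. TET1 kept only peaks of 383, 94 and 54 bp, TET2 of 687 and 355 bp, and TET3 of 337 bp or less. DNMT1, with no region over 260 bp, and DNMT3B, with none over 315 bp, kept their 15.8 and 12.0 bp per kb. Every TET gene then lay below both. The order by number was different: per 10 kb, recurrent regions numbered 1.899 in UHRF1, 1.13 in DNMT1, 0.569 in TET3, 0.456 in DNMT3A, 0.426 in DNMT3B, 0.298 in TET1 and 0.224 in TET2. Over RefSeq lengths TET3 had 0.395, below the 0.436 of DNMT3A and the 0.426 of DNMT3B. DNMT1 thus had many listed regions and little length under them. Whether peaks were trimmed to exons is not given, so the number, width and length of regions were not read as differences in methylation between genes.

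**Figure D3:**
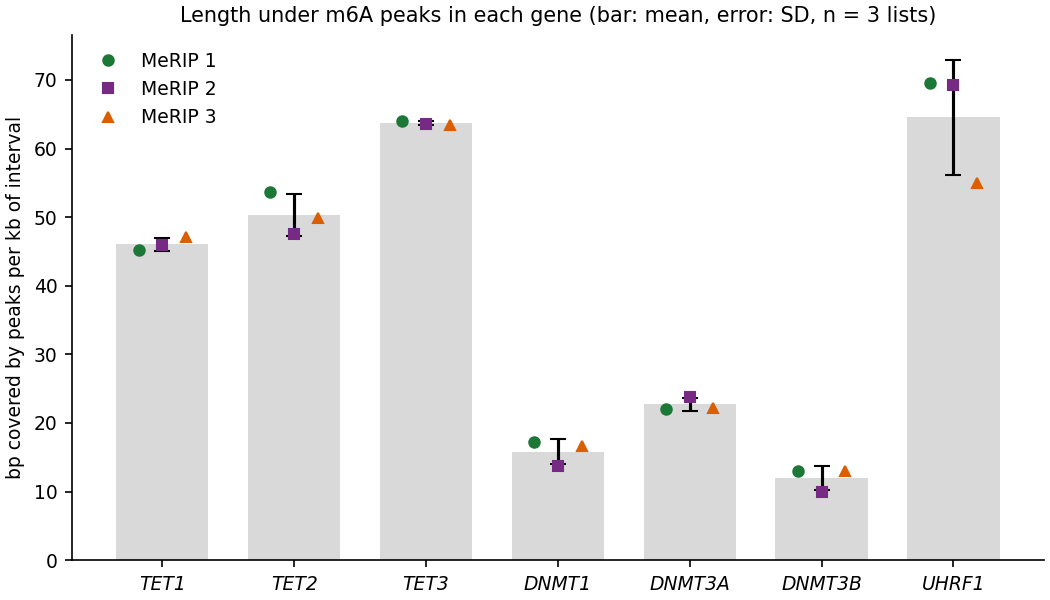
Length under peaks in bp per kb of gene interval; bars show the mean, error bars the SD over 3 lists, and points the lists. The 3 TET genes lie between 45.2 and 64.1 bp per kb in every list and the 3 methyltransferase genes between 9.98 and 23.8.

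Wide regions were most common in TET1 and TET2. By gene, the median width of recurrent regions was 1786 bp in TET1, 2115 bp in TET2, 273 bp in TET3, 85 bp in DNMT1, 249 bp in DNMT3A, 304.5 bp in DNMT3B and 167.5 bp in UHRF1. TET3 was thus close to DNMT3A and DNMT3B, having 2 wide regions among narrow ones. Pooled, the 13 recurrent regions of the TET genes had a median width of 1536 bp and 7 of them were over 1000 bp, whereas the 24 of the methyltransferase genes and UHRF1 had a median of 167.5 bp and 2 over 1000 bp. Over all 37, the median width was 216 bp, against 538 bp in the 15265 regions of the series found in all 3 lists. The median of their scores, taken as the median of the 3 lists in each region, was 1251 against 729 in the series. Of the 37 regions, 6 (16.2%) were at most 100 bp wide, 5 of them in DNMT1 and 1 in TET3, against 4.57% in the series. At the other end, 2 (5.41%) spanned 3000 bp or more, the TET2 and TET3 regions described above, against 4.95%. The genes differ in number of regions, so a median over them is weighted towards UHRF1 and DNMT1. How far widths follow the sizes of exons was not tested.

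**Figure D4:**
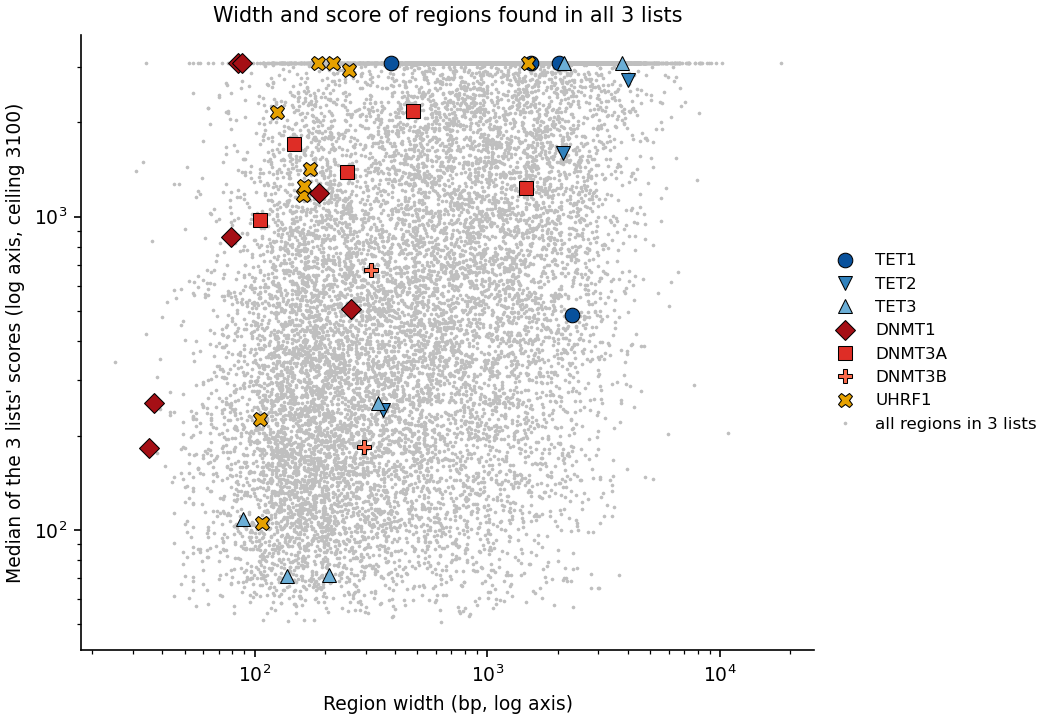
Width (bp, log axis) and median score of the 3 lists (log axis, ceiling 3100) of the 37 regions of the 7 genes found in all 3 lists (coloured) and of all 15265 such regions of the series (grey dots). The narrowest coloured points, of 35 and 37 bp, are DNMT1 regions, and 7 TET regions lie beyond 1000 bp.

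The regions of UHRF1 lay close together. When recurrent regions within 10 kb of one another on the same strand were chained, its last 10 regions joined with the next region downstream, 6.96 kb past the interval, into a chain of 11 over 40.01 kb. Of the 10843 chains in the series, lone regions included, 13 (0.120%) held 10 or more regions. This is a share of chains, and the share of regions that lie in such chains was not computed. RefSeq lists KDM4B as the next gene after UHRF1. In DNMT1 5 regions chained over 15.5 kb and in TET3 4 chained over 16.4 kb. The recurrent regions of TET1 were all further than 10 kb from one another. Outside UHRF1, the nearest region on the gene's own strand lay 26.4 kb or more beyond either end of the interval. The intervals of TET3 (105.5 against 151.9 kb), UHRF1 (52.7 against 59.1 kb) and DNMT3A (109.6 against 114.7 kb) are shorter than the genes in RefSeq. In each case the nearest same-strand region lay further off than the missing length, at 90.4 kb from TET3, 6.96 kb from UHRF1 and 34.6 kb from DNMT3A.

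Edges of peaks recurred to the base in most regions. Whether peaks were trimmed to exons is not given, so shared edges may not measure how well the repeats matched. Among 36 regions with a single peak per list, start and end were identical across the lists in 28 (77.8%), against 72.7% in the series. In 6 (16.7%) the upstream edge alone was shared, against 20.4% in the series, and in 2 the downstream edge alone. The 6 included the last region of TET1, TET2, DNMT3A and UHRF1. In the last region of TET1 the 3′ edge lay at 70451807 in MeRIP 1, 70451992 in MeRIP 2 and 70452100 in MeRIP 3. In that of UHRF1 it lay at 4962165, 4962155 and 4962069. The large TET2 region ended at 106159079, 106158973 and 106158776 in MeRIP 1, 2 and 3, from a common start. The order of the lists was thus not the same, since MeRIP 3 reached furthest in TET1 and least far in UHRF1 and TET2. The free upstream edges were in the 5′ region of DNMT1, which began at 10305713, 10305755 and 10305752 in MeRIP 1, 2 and 3, and in the downstream region of DNMT3B, which was 154 bp wide in MeRIP 2 and 294 bp in the other lists with the same 3′ edge.

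The range of scores over the lists was then set beside that of the series. The highest score was at most 2 times the lowest in 11 (42.3%) of the 26 regions that stayed under the ceiling, against 52.4% in the series. The median range was 2.07-fold, against 1.94-fold. One region, in TET1, exceeded 5-fold, against 7.44% in the series.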

How the data were processed

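Reads were trimmed with cutadapt 1.9.3 and aligned with HISAT2 2.0.4 to hg19, per the submitters' processing notes. Peak names carry the word MACS; its settings, how strands were chosen and whether peaks were trimmed to exons are not given here. The authors deposited 1 list for each repeat, not pooled, with a score for each peak. The lists hold no reads, so depth is unknown and no interval on counts is given.

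Peaks of the 3 lists sharing 1 bp on the same strand were merged over the whole table, and each region took the highest score per list. Regions were then assigned to the 7 genes by peak centre. Starts are counted from 1. Spreads are SDs over 3 lists; the shares of regions in all 3 lists and at the ceiling carry 95% Wilson intervals. No test was run, since the design holds no contrast. Every region of the genes is accounted for, with full values for the strongest, the widest, the most variable and those missing from a list. Members and settings were chosen with earlier results of these data known. Gene names and lengths are from RefSeq (GRCh38.p14), whose coordinates were not used to place peaks. Planned comparisons with other DNA methylation genes and sequence motifs were not run, for want of an hg19 annotation and genome. Merging was checked on planted lists. Calculations ran in Python 3.11.15 with pandas 2.3.3, NumPy 2.4.6 and SciPy 1.17.1, and plots in Matplotlib 3.10.9. Alternatives were stricter scores, narrower peaks, strand ignored, other overlaps and 1 repeat left out.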

Additional observations from a re-analysis of the deposited data

How the results depend on the processing

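No paired analysis was possible because a list merges the IP and input of 1 repeat into 1 score per peak, with no value for either library. The count of 37 regions in all 3 lists was also 37 with strand ignored, with any overlap with the interval and with a 50% reciprocal overlap, 32 with scores of 100 or more, 28 with peaks of at most 1000 bp and 24 with scores at or above the median of their list. The share in all 3 lists ran from 74.4 to 80.4% over these settings, apart from the reciprocal overlap, for which no share was computed. The shares of the series, 59.3% in all 3 lists and 11.2% at the ceiling, were taken with the main settings alone. Whether the 7 genes differ from the series under the alternatives was thus not tested. Without 1 repeat, a region had to be in both remaining lists, a looser rule that the 37 regions already met. The count then ran from 37 to 40, the share from 84.1 to 88.9% and the share at the ceiling from 18.2 to 22.2%. These counts and shares are therefore no check of the result for all 3 lists. The length under peaks ran from 41.5 to 42.3 bp per kb without 1 repeat. With peaks of at most 1000 bp, 8.11% of regions were at the ceiling in all lists. Length under peaks over the 7 genes was 42.0 ± 0.934 bp per kb (SD, n = 3 lists). It was 40.4 with scores of 100 or more, 36.2 with scores at or above the list's median and 10.2 with peaks of at most 1000 bp, settings that use fewer peaks, and 38.5 over RefSeq gene lengths, chosen after seeing the data. Counts for single genes were made with strand ignored, with scores of 100 or more and with 1 repeat left out. All 35 lay within 1.5 times their main value, those with a repeat left out under the looser rule. None was made with peaks of at most 1000 bp or with scores at or above the list's median. Of the recurrent regions of TET1 and TET2, only those of 383 bp and 355 bp were under 1000 bp, so their counts are not shown to be stable there. Depth is unknown, so the score ceiling and the lowest score of 50 limit what can be compared.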

Other observations

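Peak numbers in the lists run along each chromosome and have gaps. Between the first and the last listed peak of each of the 7 genes, 33 of 64 numbers in MeRIP 1, 27 of 53 in MeRIP 2 and 25 of 52 in MeRIP 3 had no listed peak on the gene's strand. Over the whole series 22.0, 26.6 and 26.7% of all numbers up to the highest were listed in MeRIP 1, 2 and 3. Unlisted numbers are thus common throughout the series. Whether they are more or less common in these genes was not tested. The measures are unlike: the series shares are of listed numbers anywhere. The genes' counts are of unlisted numbers, on the gene's strand and between listed peaks. The first and last peak of each gene were left out of the count for the genes. DNMT3A had the most such numbers, 13, 13 and 12 in MeRIP 1, 2 and 3, and DNMT3B had 0 in each. TET1 had 4, 2 and 0. The strand and score of the unlisted peaks are not known here.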
